A study of Mus musculus with 8 samples.

Results

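The liver is the main site where the carbon of most amino acids is broken down, and where methionine sulfur is passed through homocysteine to cysteine and taurine. The 48 genes described here encode enzymes of these routes, for tyrosine, tryptophan, lysine, histidine, proline, serine, glycine, alanine, the branched-chain amino acids, phosphoethanolamine, methionine and cysteine, with the asparagine-synthesizing enzyme Asns and the kinase Bckdk, which inactivates branched-chain ketoacid dehydrogenase. They were chosen by name for their place in a pathway, with earlier results of these data known. All 48 of them, out of 35275 genes in the count table, had enough reads to be tested. In a fasted liver, aminotransferases remove the amino group, the carbon skeletons are cut to pyruvate, tricarboxylic acid cycle intermediates or acetyl groups, and part of that carbon is used for glucose. Pyruvate carboxylase, the product of Pcx, makes oxaloacetate from pyruvate in mitochondria and so stands at the entry of pyruvate and alanine carbon into this process.

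Liver RNA was sequenced from 4 Pcx L-/- mice, in which a loxP-flanked exon of Pcx was removed by Cre recombinase under the albumin promoter, and from 4 control mice labelled WT, which the methods describe as littermates with the floxed Pcx allele and no Cre. All 8 mice were male C57BL/6, 9 weeks old, fed standard chow and then fasted for 24 h, and each library came from 1 mouse. The albumin promoter acts in hepatocytes, so other liver cells keep Pcx, and there were no fed animals, so that the comparison shows genotype in the fasted state and not the response to fasting. Libraries held 12016242 to 20023108 reads on genes. Pcx itself gave 14371 to 22059 normalized counts in the control mice and 556 to 758 in the Pcx L-/- mice, 3.60% of the control mean. Normalized counts are reads scaled to a common effective library size by TMM (trimmed mean of M values), and a call is an adjusted p under 0.05 in edgeR's quasi-likelihood F test over 13168 genes.

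Pcx L-/- replicate 1 stood apart from the other 3 Pcx L-/- livers. On the first principal component of all genes, which held 54.3% of the variance, it lay at 7.25, the other Pcx L-/- mice at 39.9 to 49.8 and the control mice at -46.0 to -29.1. Its Pcx level, 758 normalized counts, was the highest of its group but far below every control. It was the only Pcx L-/- mouse numbered in the 500s, with control replicates 1 and 2, so that its number series and its own state cannot be told apart. The summed level of 6 red blood cell genes was 69339 normalized counts in it, against 4749 to 16720 in the controls and at most 15783 in the other Pcx L-/- mice, and its part in the results was not tested. Because this mouse differed from the rest of its group in most genes below, the results are given with and without it.

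Amino acid breakdown genes were lower in Pcx L-/- liver more often than genes in general. The list was chosen with earlier results of these data known, so the shares below describe it and do not test it. Of the 48, 19 were lower (39.6%), against 13.5% of all genes tested, and 2 were higher (4.17%), against 14.1%. The other 27 did not pass the test. The median log2 fold change of the 48 was -0.48, beside -0.01 for all genes. At least 2-fold, 9 were lower, or 18.8% beside 3.58% of all genes, and 1 was higher, beside 3.65%. In 14 genes every Pcx L-/- mouse was below every control mouse (29.2% of the 48, beside 12.5% of all genes), and in 3 every one was above (6.25%, beside 15.1%). Without Pcx L-/- replicate 1, 30 of 48 were lower (62.5%, beside 17.8%), the same 2 were higher (beside 16.7%), and the median was -0.70. Without Pcx L-/- replicate 4, 12 were lower (25%, beside 7.11%) and 2 higher (beside 8.63%). Fewer hepatocytes and less of an RNA per hepatocyte cannot be told apart in whole liver.

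The scaling of the libraries bears on these counts. When libraries were scaled by total reads alone, the median of all genes rose to 0.28, 14 of the 48 were lower and 5 were higher, and over all genes 6.61% were lower and 29.7% higher. The median of the 48 was then -0.22, below that of all genes on the same scale.

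**Figure D1:**
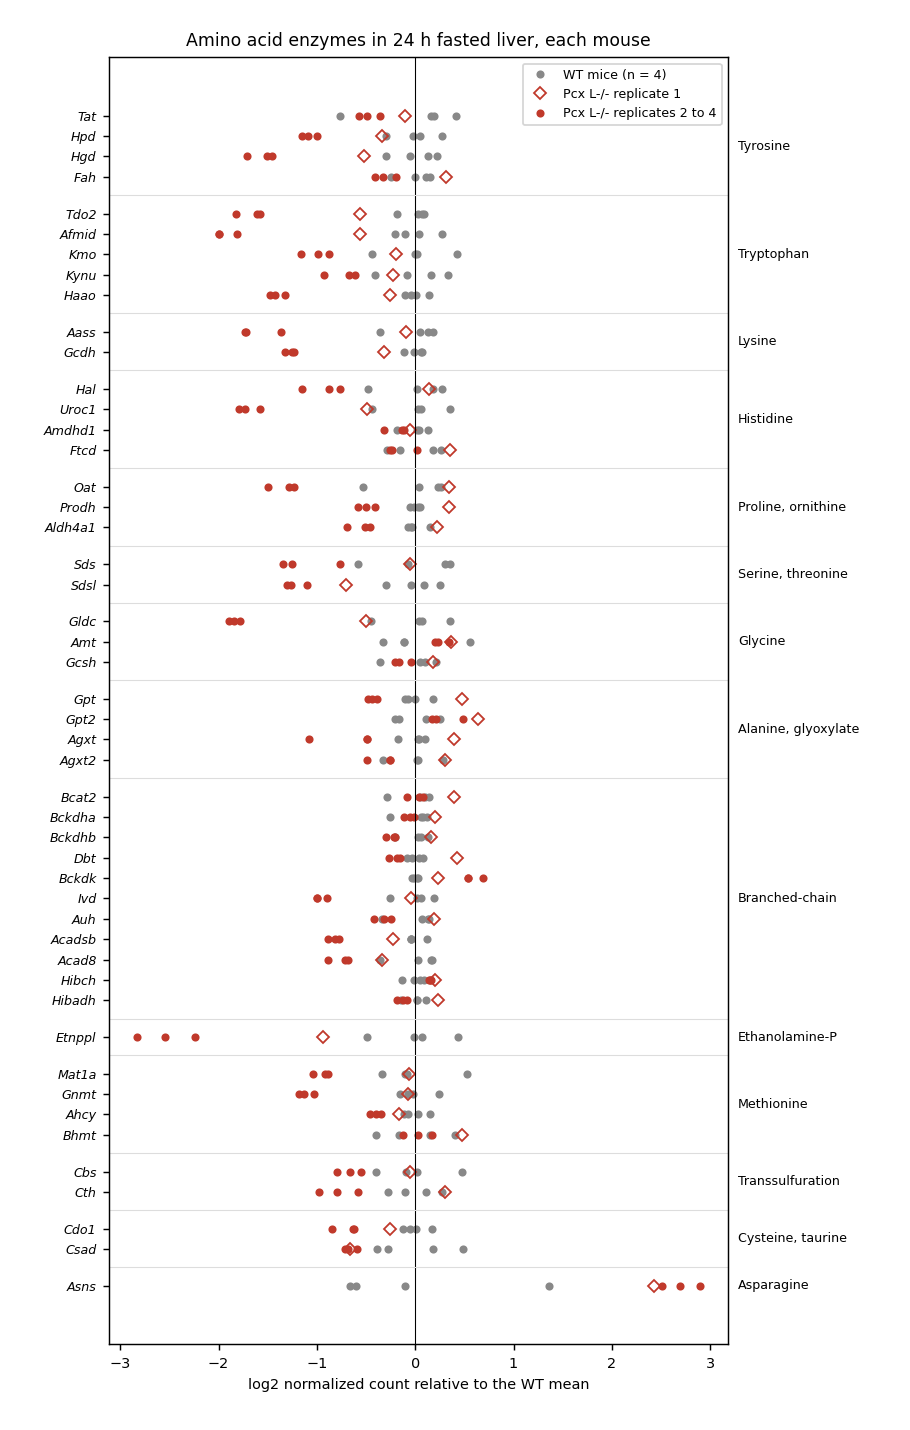
The 48 enzyme genes in each mouse. Rows are genes ordered by pathway, the horizontal axis is the log2 difference of the normalized count from the mean of the controls, grey points are the 4 control mice, filled red points Pcx L-/- replicates 2 to 4 and open diamonds Pcx L-/- replicate 1; replicates 2 to 4 lie to the left of the controls in most rows, with medians over the 48 genes of -0.82, -0.61 and -0.58, while replicate 1 lies near the controls, with a median of -0.05.

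Asns, which makes asparagine from aspartate with glutamine as the nitrogen donor, was the gene that rose most. It gave 67.4, 45.5, 47.3 and 187 normalized counts in control replicates 1 to 4 and 391.6, 471, 540.5 and 415 in Pcx L-/- replicates 1 to 4. Every Pcx L-/- mouse was above every control mouse, and control replicate 4 was the highest control. The log2 fold change was 2.46 (SE 0.37, adjusted p = 0.00132). Bckdk was the other gene that rose. Its counts were 247, 248, 242 and 238 in the controls and 287, 394, 354 and 354 in the Pcx L-/- mice, a small and non-overlapping rise with a log2 fold change of 0.51 (SE 0.12, adjusted p = 0.00882).

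Etnppl and Afmid fell most. Etnppl, a phospholyase that splits phosphoethanolamine into acetaldehyde, ammonia and phosphate, gave 8634, 4535, 6680.2 and 6322 normalized counts in the controls and 3328, 898, 1350.0 and 1094 in the Pcx L-/- mice. No Pcx L-/- mouse reached the lowest control, although replicate 1 lay well above the other 3, and the log2 fold change was -1.97 (SE 0.38, adjusted p = 0.00417). Afmid, the formamidase of the tryptophan route, gave 921, 783, 709 and 664 against 517, 191, 217 and 192. The groups again did not overlap, with a log2 fold change of -1.47 (SE 0.29, adjusted p = 0.00508). Afmid overlaps Tk1 on the other strand and Gm20708 on its own, and use of strand in counting was not given in the sources used here. Asns and Etnppl were among the transcripts that the study displayed from these same libraries, so their directions are not independent evidence.

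To show what lies in front of the genes with the largest called changes in each direction, the bases before the RefSeq start (GRCm38.p6) are printed 5′ to 3′ on the strand of the gene, only where no annotated exon lies. The Asns stretch is chr6:7693255-7693459 (minus strand), that of Bckdk chr7:127903823-127904072 (plus) and that of Etnppl chr3:130617198-130617447 (plus). The window before Afmid lies in the first exon of Tk1 for 205 of its 250 bases and is not printed.
Asns: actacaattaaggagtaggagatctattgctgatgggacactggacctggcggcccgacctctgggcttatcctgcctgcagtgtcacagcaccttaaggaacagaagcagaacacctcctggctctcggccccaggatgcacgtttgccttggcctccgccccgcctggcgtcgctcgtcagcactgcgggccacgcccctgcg
Bckdk: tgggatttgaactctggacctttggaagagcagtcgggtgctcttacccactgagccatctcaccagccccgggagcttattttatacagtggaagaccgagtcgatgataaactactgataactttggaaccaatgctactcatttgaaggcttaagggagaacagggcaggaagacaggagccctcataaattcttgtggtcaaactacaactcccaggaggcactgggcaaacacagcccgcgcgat
Etnppl: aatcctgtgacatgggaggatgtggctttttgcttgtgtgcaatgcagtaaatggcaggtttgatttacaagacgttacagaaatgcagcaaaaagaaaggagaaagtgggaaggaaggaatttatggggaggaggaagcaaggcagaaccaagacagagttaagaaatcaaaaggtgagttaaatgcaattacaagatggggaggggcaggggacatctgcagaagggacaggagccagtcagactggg

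The human ASNS promoter is known for a nutrient-sensing element with the letters TGATGAAAC, to which Atf4 and related factors bind. In the mouse this string lies at chr6:7693224-7693232, 23 to 15 bases before the RefSeq start of Asns and 22 bases past the GENCODE start, so that it falls in the promoter by one annotation and in the first exon by the other. The 29 bases around it, chr6:7693214-7693242, are printed with the string in capitals.
Asns site: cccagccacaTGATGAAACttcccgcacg
RefSeq start sites were matched for 40 of the 48 genes. Searched on both strands over the 250 bases before the start, TGATGAAAC was found in Asns alone among the 40 and in 0.213% of all 32851 windows. The looser TGATGNAA was found in 3.45% of windows and, among the 40, only in Asns at the overlapping place. The strings TTGCATCA (0.791% of windows) and TGACGTCA (1.55%), read as C/EBP-ATF and cyclic AMP elements, were found in no window of the 40 genes. A match describes letters, not binding.

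Of 4 tyrosine genes, Hpd and Hgd fell. Hgd, the homogentisate dioxygenase, gave 14158, 10586, 12533 and 15079 normalized counts in the controls and 9043, 3964, 4568 and 4736 in the Pcx L-/- mice. The groups did not overlap and the log2 fold change was -1.23 (SE 0.25, adjusted p = 0.00512). Hpd, which makes homogentisate, was also lower in every Pcx L-/- mouse, by a log2 fold change of -0.87 (SE 0.21, adjusted p = 0.0122). Tat, the aminotransferase that starts the route and a classic glucocorticoid target, gave 67567, 35718, 69347 and 80762 against 56542, 43069, 47229 and 40921. Here the groups overlapped, control replicate 2 being lowest of all, and the log2 fold change of -0.43 (adjusted p = 0.202) passed only without that control mouse (adjusted p = 0.0283). Fah, the last enzyme, had a log2 fold change of -0.13 (adjusted p = 0.615), and Gstz1, which acts between Hgd and Fah and is not one of the 48, had one of -0.27 (adjusted p = 0.293).

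All 5 listed genes of the kynurenine route, by which liver opens the tryptophan ring and makes NAD precursors, were lower. Tdo2, the dioxygenase of the first step, gave 57504, 47746, 56621 and 55126 normalized counts in the controls and 36734, 15248, 18156 and 17706 in the Pcx L-/- mice, with no overlap and a log2 fold change of -1.30 (SE 0.26, adjusted p = 0.00497). Haao, the 3-hydroxyanthranilate dioxygenase near the end, gave 5699, 5021, 5231 and 4827 against 4331, 1856, 2072 and 1923. It too did not overlap, with a log2 fold change of -1.03 (SE 0.25, adjusted p = 0.0119). Kmo, the kynurenine hydroxylase, and Kynu, the kynureninase, fell less, by log2 fold changes of -0.79 (adjusted p = 0.0266) and -0.61 (adjusted p = 0.0295), and the groups overlapped in both. Both calls were kept without Pcx L-/- replicate 1 (adjusted p = 0.00123 and 0.00524) but were lost when any of several other mice was left out. That of Kmo was lost without any 1 of control replicates 1, 3 or 4 or Pcx L-/- replicates 2, 3 or 4 (adjusted p 0.0557 to 0.0871), and that of Kynu when control replicate 3, control replicate 4 or any of Pcx L-/- replicates 2 to 4 was left out (0.0642 to 0.0890). Kynu also lost its call with scaling by total reads and with limma on FPKM (0.0898 to 0.103).

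Both lysine genes were lower. Gcdh, the glutaryl-CoA dehydrogenase at which lysine and tryptophan carbon meet, gave 10865, 10343, 10926 and 9619 normalized counts in the controls and 8379, 4159, 4372 and 4423 in the Pcx L-/- mice. The control mice were close together and the groups did not overlap, and the log2 fold change was -0.97 (SE 0.22, adjusted p = 0.00838). Aass, the bifunctional enzyme that starts the saccharopine route, gave 13475, 9612, 12721 and 13903 against 11564, 3716, 4762 and 3737. Pcx L-/- replicate 1 lay among the controls while the other 3 were far below, for a log2 fold change of -1.06 (SE 0.34, adjusted p = 0.0357). Its call was lost without any 1 of control replicates 1, 3 or 4 or Pcx L-/- replicates 2, 3 or 4 (adjusted p 0.0699 to 0.107), and without replicate 1 the log2 fold change was -1.61.

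Of 4 histidine genes, 1 fell. Uroc1, the urocanase of the second step, gave 10566, 7481, 10291 and 12886 normalized counts in the controls and 7213, 3042, 3398 and 2916 in the Pcx L-/- mice. The highest Pcx L-/- mouse was just below the lowest control, and the log2 fold change was -1.32 (SE 0.29, adjusted p = 0.00769). Hal, the histidase before it, had a log2 fold change of -0.60 (adjusted p = 0.122) and passed without Pcx L-/- replicate 1, at -0.95 (adjusted p = 0.00204). Amdhd1 and Ftcd, which complete the route to glutamate, had log2 fold changes of -0.16 (adjusted p = 0.361) and -0.03 (adjusted p = 0.932). Within each library, the ratio of Uroc1 to Ftcd reads was 0.794 to 1.5 in the controls and 0.275 to 0.540 in the Pcx L-/- mice, without overlap; this pair was chosen after its values were seen.

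**Figure D2:**
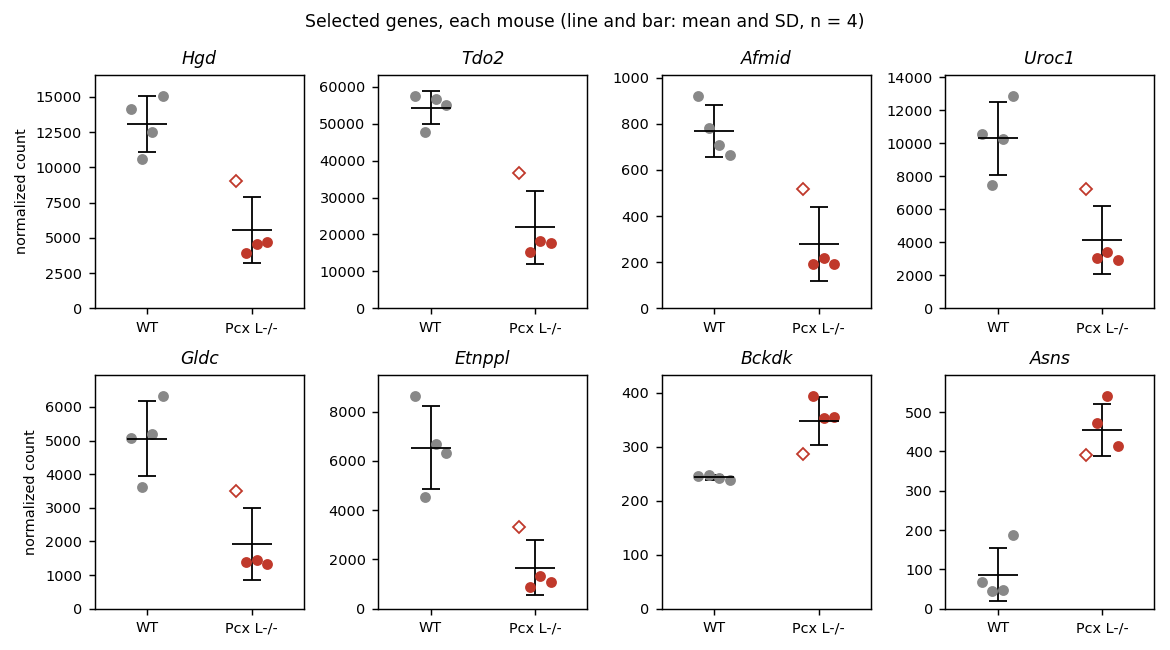
Normalized counts of 8 enzyme genes by mouse. Each panel is a gene, points are mice (grey for control, red for Pcx L-/-, an open diamond for Pcx L-/- replicate 1), the vertical axis is linear from 0, and the line and bar are the group mean and SD; in all 8 the groups do not overlap, and Pcx L-/- replicate 1 lies nearest to the controls.

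The proline and ornithine genes did not pass the test with all 8 mice, and each was called lower without Pcx L-/- replicate 1. Oat, the ornithine aminotransferase, gave 32761, 19295, 28505 and 33382 normalized counts in the controls and 35288, 9878, 11868 and 11456 in the Pcx L-/- mice. The first Pcx L-/- mouse was the highest of all 8 and the other 3 were below every control. Its log2 fold change was -0.73 (SE 0.38, adjusted p = 0.176), and -1.36 (adjusted p = 2.83e-04) without replicate 1. With all 8 mice and a replicate block in the model, Oat was also called lower. Prodh, the proline oxidase, and Aldh4a1, which follows it, had log2 fold changes of -0.23 (adjusted p = 0.396) and -0.32 (adjusted p = 0.226), and passed without replicate 1 at -0.49 and -0.55 (adjusted p = 0.00312 and 0.00273).

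Sdsl, a serine dehydratase-like enzyme, fell with the smallest adjusted p of the 48. It gave 723, 605, 791 and 884 normalized counts in the controls and 457, 301, 310 and 345 in the Pcx L-/- mice. Replicate 1 was again the highest of its group but well below the controls, and the log2 fold change was -1.09 (SE 0.16, adjusted p = 0.00121). Sds, the serine dehydratase that turns serine into pyruvate, gave 4828, 2518, 4630.5 and 3572 against 3621, 1483, 2214 and 1579. These overlapped, and the log2 fold change of -0.81 (SE 0.29, adjusted p = 0.0579) just missed the threshold, passing without control replicate 2 (adjusted p = 0.0328) or Pcx L-/- replicate 1 (adjusted p = 0.00278), with every gene that had at least 1 read (adjusted p = 0.0313) and with DESeq2 (adjusted p = 0.0199).

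In the glycine cleavage system, 1 of 3 subunits fell. Gldc, the decarboxylating P protein, gave 5083, 3620.2, 5197 and 6320.1 normalized counts in the controls and 3510.2, 1378, 1443 and 1335 in the Pcx L-/- mice. The groups did not overlap, replicate 1 lying just under the lowest control, and the log2 fold change was -1.40 (SE 0.31, adjusted p = 0.00788). The subunits that work with it, Amt (T protein) and Gcsh (H protein), had log2 fold changes of 0.25 (adjusted p = 0.299) and -0.07 (adjusted p = 0.762), and Amt was higher without control replicate 4 (adjusted p = 0.00808). The ratio of Gldc to Gcsh reads was 2.73 to 7.08 in the controls and 1.20 to 2.70 in the Pcx L-/- mice, a pair also chosen after its values were seen.

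None of the 4 alanine and glyoxylate aminotransferases passed. Gpt2, the mitochondrial alanine aminotransferase that supplies pyruvate where pyruvate carboxylase works, gave 20886, 16784, 17204 and 23032 normalized counts in the controls and 30005, 22357, 26997 and 21678 in the Pcx L-/- mice. Their ranges overlapped only at control replicate 4, and the log2 fold change was 0.38 (SE 0.17, adjusted p = 0.117); it was higher when libraries were scaled by total reads. Gpt, the cytosolic enzyme, had a log2 fold change of -0.15 (adjusted p = 0.633), Agxt, the peroxisomal alanine-glyoxylate aminotransferase, -0.32 (adjusted p = 0.377) and Agxt2, its mitochondrial counterpart, -0.16 (adjusted p = 0.544). Without Pcx L-/- replicate 1, Gpt and Agxt were lower, at -0.44 (adjusted p = 0.0107) and -0.67 (adjusted p = 0.00655).

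Among 11 branched-chain genes, 3 fell and Bckdk rose. The genes of the shared first steps barely differed. Bcat2, the aminotransferase, and Bckdha, Bckdhb and Dbt, the subunits of the ketoacid dehydrogenase that Bckdk phosphorylates, had log2 fold changes of 0.10, 0.01, -0.13 and -0.02 (adjusted p 0.469 to 0.983). The acyl-CoA dehydrogenases that follow were lower, each on 1 branch: Acad8 for valine, Acadsb for isoleucine and Ivd for leucine. Acad8, whose adjusted p was the smallest of the 11, gave 1349, 1359.9, 1229 and 945 normalized counts in the controls and 953, 651, 753 and 738 in the Pcx L-/- mice. The first Pcx L-/- mouse and the fourth control were nearly equal, and the log2 fold change was -0.66 (SE 0.15, adjusted p = 0.0085). Its call was lost with scaling by total reads and with limma on FPKM (adjusted p 0.0568 to 0.0888).

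Acadsb had a log2 fold change of -0.65 (SE 0.15, adjusted p = 0.0089) with no overlap. Ivd, the isovaleryl-CoA dehydrogenase, had one of -0.68 (SE 0.22, adjusted p = 0.0362), and its call was lost without any 1 of control replicates 1 to 3 or Pcx L-/- replicates 2 to 4 (adjusted p 0.0660 to 0.115), and likewise under those scalings (0.0775 to 0.0782). Auh and Hibadh, later enzymes of leucine and valine, had log2 fold changes of -0.20 and -0.03 (adjusted p = 0.376 and 0.873). Hibch, the hydroxyisobutyryl-CoA hydrolase, was above the controls in every Pcx L-/- mouse, at 1557 ± 27.9 against 1393 ± 90.6 normalized counts (SD, n = 4 each), but its log2 fold change of 0.16 did not pass (adjusted p = 0.232). The ratio of Bckdk to Bckdha reads was 0.0472 to 0.0585 in the controls and 0.0515 to 0.0878 in the Pcx L-/- mice, with Pcx L-/- replicate 1 inside the control range.

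**Figure D3:**
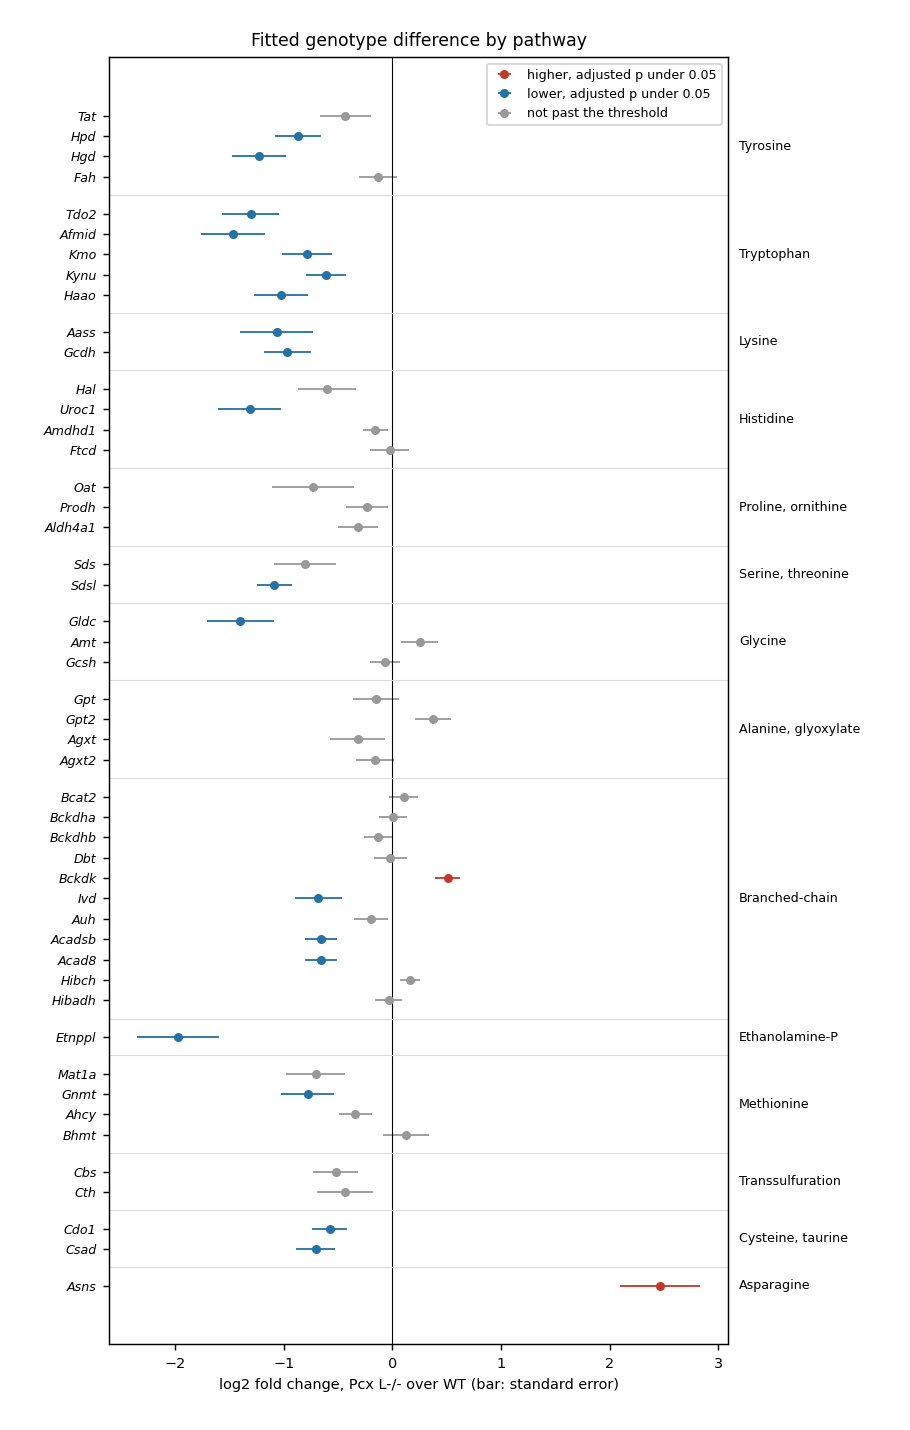
Log2 fold change of each of the 48 genes, Pcx L-/- over control. Points are edgeR estimates with bars of 1 standard error, grouped by pathway and coloured by the call; 19 points are called lower, with Etnppl lowest at -1.97, and 2 are called higher, with Asns at 2.46.

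In the methionine cycle, 1 of 4 genes fell. Gnmt, which uses S-adenosylmethionine to methylate glycine and so disposes of excess methyl groups, gave 44869, 33943, 36120.4 and 37399 normalized counts in the controls and 36031, 16723, 18615 and 17319 in the Pcx L-/- mice. The first Pcx L-/- mouse lay among the controls and the others were at about the same low level, for a log2 fold change of -0.78 (SE 0.25, adjusted p = 0.0357). Its call was lost without any 1 of control replicates 1, 3 or 4 or Pcx L-/- replicates 2 to 4 (adjusted p 0.0542 to 0.117), and with limma on FPKM (0.0509 and 0.0518). Mat1a, which makes S-adenosylmethionine, gave 201765, 171599, 204394 and 311065 against 207259, 105284, 117366 and 114666. Again 3 of 4 Pcx L-/- mice were below every control, and the log2 fold change was -0.71 (SE 0.27, adjusted p = 0.0726), or -0.98 (adjusted p = 0.00228) without replicate 1. With DESeq2 it was called lower (adjusted p = 0.0171).

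Ahcy, the S-adenosylhomocysteine hydrolase, was lower in every Pcx L-/- mouse than in every control, at 56181 ± 5134 against 71181 ± 5849.8 normalized counts (SD, n = 4 each), although its log2 fold change of -0.34 did not pass (adjusted p = 0.114). Bhmt, which remethylates homocysteine with betaine, had a log2 fold change of 0.12 (adjusted p = 0.708). Both transsulfuration genes, Cbs and Cth, through which homocysteine becomes cysteine, missed the threshold, with log2 fold changes of -0.52 (SE 0.21, adjusted p = 0.0858) and -0.44 (adjusted p = 0.241). Cbs gave 8182, 6659, 8858 and 12168 against 8408, 5058, 5524 and 5974 normalized counts. Here too replicate 1 lay inside the control range and the other 3 Pcx L-/- mice below it. Without replicate 1, Ahcy, Cbs and Cth were lower, at -0.41, -0.70 and -0.79 (adjusted p = 0.0172, 0.0116 and 0.00265). With all 8 mice, DESeq2 called Ahcy and Cbs lower (adjusted p = 0.0106 and 0.0490).

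Both genes that turn cysteine into taurine were lower. Csad, the cysteine sulfinate decarboxylase, gave 3466, 6378, 3742 and 5129 normalized counts in the controls and 2867, 2816, 3007 and 2774 in the Pcx L-/- mice. The controls were spread widely while the Pcx L-/- mice were nearly equal, replicate 1 included, and the log2 fold change was -0.71 (SE 0.18, adjusted p = 0.0151). Its call was lost without Pcx L-/- replicate 4 (adjusted p = 0.0503), and with scaling by total reads or limma on FPKM (0.0860 to 0.124). Cdo1, the cysteine dioxygenase of the committed step, gave 35456, 39673, 32549.8 and 34161 against 29642, 19636, 22758 and 22919.8. The groups did not overlap, and the log2 fold change was -0.58 (SE 0.16, adjusted p = 0.0209), lost without any 1 of control replicates 1 or 2 or Pcx L-/- replicates 2 to 4 (adjusted p 0.0504 to 0.0732) and under the same scalings (0.0720 to 0.106). Csad overlaps Zfp740 on the other strand.

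The calls of 13 genes, Hpd, Hgd, Tdo2, Afmid, Haao, Gcdh, Uroc1, Sdsl, Gldc, Acadsb, Etnppl, Bckdk and Asns, were made under all 16 other ways of scaling, filtering, testing or leaving out a mouse. Pcx L-/- replicate 1 had the highest value of its group in 45 of the 48 genes (93.8%), against 34.5% of all genes tested and 77.8% of all genes that were lower. Among the 19 lower genes it was highest in 18, Csad being the exception. Over these 19, the median log2 ratio to the control mean was -0.34 in replicate 1 and -1.30, -1.25 and -1.13 in replicates 2 to 4. For Asns, in contrast, replicate 1 was 2.43 above the control mean on the log2 scale and the other 3 averaged 2.70, and for Csad both values were -0.66.

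Mice numbered in the 500s, control replicates 1 and 2 with Pcx L-/- replicate 1, gave a median log2 difference of 0.06 over the 48 genes. Those numbered in the 800s gave -0.69. In the 500s, 16 genes were lower in the Pcx L-/- mouse than in both controls, and in the 800s 33 were lower in all Pcx L-/- mice than in both controls. A single mouse falls below both controls by chance more easily than a whole group does. These 2 counts are therefore not comparable, and the share over all genes was not counted for either, so neither count is read as a result. Over the 19 lower genes the medians were -0.30 and -1.25. What these number series stand for was not given in the sources used here.

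**Figure D4:**
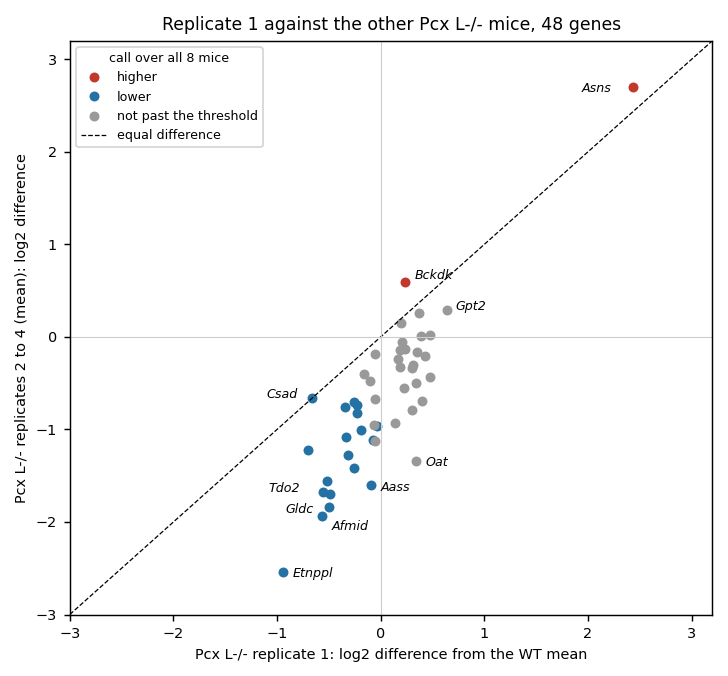
Pcx L-/- replicate 1 against the other 3 Pcx L-/- mice for the 48 genes. The horizontal axis is the log2 difference of replicate 1 from the control mean, the vertical axis the mean log2 difference of replicates 2 to 4, colours are the calls over all 8 mice and the dashed diagonal is equality; most points lie below the diagonal, and Csad lies on it, at -0.66 on both axes.

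Compared per gene length, as FPKM, which divides reads by gene length and by the reads of the library, the 48 genes spanned from Mat1a to Asns. In the controls Mat1a was at 3657 ± 767 FPKM (SD, n = 4), followed by Hpd at 2176 ± 247, Gnmt at 1965 ± 279.8, Ahcy at 1490.3 ± 69.7, Tat at 1411 ± 388, Bhmt at 1269.5 ± 250.5 and Cdo1 at 1239 ± 151. Mat1a lay above Hpd, and Gnmt above Ahcy, by more than the SD between mice, whereas Hpd and Gnmt, and each neighbouring pair from Ahcy to Cdo1, differed by less than that spread. The lowest were Bckdk at 4.57 ± 0.333 and Asns at 2.22 ± 1.57. In the Pcx L-/- mice Mat1a was still first at 2704 ± 663, Bhmt was second at 1684 ± 179, and Asns, at 14.8 ± 3.06, had passed Auh at 12 ± 1.27, Bckdk at 8.0 ± 1.59 and Afmid at 7.54 ± 3.45. Etnppl went from place 25 to place 38 of 48. Together the 48 genes took 4.01% to 5.16% of all reads in the controls, 4.96% in Pcx L-/- replicate 1 and 3.46% to 3.84% in the other 3.

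Of 70 other genes of the same pathways, 66 were tested, 23 were lower (34.8%, beside 13.5% of all genes) and 10 higher (15.2%, beside 14.1%), with a median log2 fold change of -0.25. This list too was chosen with earlier results known. Of these 66, 34 were lower without Pcx L-/- replicate 1, beside 17.8% of all genes, and 14 without replicate 4, beside 7.11%. Without replicate 2 or 3, 13 were lower, and the share over all genes was not counted there. In the tyrosine group, 3 of 6 were lower, and Got2, the mitochondrial aspartate aminotransferase, had the smallest difference at -0.14 (adjusted p = 0.492). In the tryptophan group 3 of 6 were lower and Kyat1, a kynurenine aminotransferase, was higher at 0.41 (adjusted p = 0.0245). The call of Kyat1 was lost when control replicate 2, control replicate 3 or any of Pcx L-/- replicates 2 to 4 was left out (0.0558 to 0.0694). Ido2, a relative of Tdo2 in function, fell by 1.73 on the log2 scale (adjusted p = 0.00171), and Acmsd, which turns the route away from NAD, by 1.52 (adjusted p = 0.00867).

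Beside Aass and Gcdh, 3 of 6 other lysine genes were lower. Aldh7a1, the aldehyde dehydrogenase where the saccharopine and pipecolate routes meet, was at -1.13 (adjusted p = 0.00373) and Pipox, the pipecolate oxidase, at -1.03 (adjusted p = 0.0116). Crym, a ketimine reductase that also binds thyroid hormone, was higher at 1.71 (adjusted p = 0.00453), from 30.4 ± 11 to 101 ± 38.4 normalized counts (SD, n = 4 each). Neither Hdc (-0.59, adjusted p = 0.0587) nor Carns1 (-0.46, adjusted p = 0.499), which take histidine to histamine and carnosine, passed.

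The genes around proline split by direction. Among those that make proline, Pycr1 and Aldh18a1 rose from low levels and Pycr3 did not pass (0.33, adjusted p = 0.123). Pycr1, the mitochondrial pyrroline-5-carboxylate reductase, gave 7.28, 9.75, 6.45 and 6.79 normalized counts in the controls and 26.4, 42.0, 40.4 and 50.6 in the Pcx L-/- mice. No value overlapped, replicate 1 was again nearest to the controls, and the log2 fold change was 2.37 (SE 0.31, adjusted p = 8.2e-04). Aldh18a1, which makes pyrroline-5-carboxylate from glutamate, rose by 2.04 (adjusted p = 0.00431). Prodh2, the hydroxyproline dehydrogenase, was lower at -0.99 (adjusted p = 0.0123), with Hoga1, which acts later on hydroxyproline. In the serine group neither Srr, the serine racemase (-0.19, adjusted p = 0.262), nor Gcat (0.29, adjusted p = 0.0989), which acts on threonine carbon, passed.

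Hao1, the glycolate oxidase that makes glyoxylate in peroxisomes, was the lowest of all these genes. It gave 2260.4, 2288.5, 2746 and 2422 normalized counts in the controls and 1039.8, 470.2, 391.9 and 519 in the Pcx L-/- mice. The groups lay far apart, and the log2 fold change was -2.01 (SE 0.26, adjusted p = 8.35e-04), while Grhpr, which reduces glyoxylate, was at -0.15 (adjusted p = 0.406). In the branched-chain group 6 of 12 were lower and none higher, with Hsd17b10, of the isoleucine branch, at -0.99 (adjusted p = 0.0028) and Ppm1k, the phosphatase that opposes Bckdk, at -0.15 (adjusted p = 0.58). Phykpl, the phospholyase related to Etnppl that acts on phosphohydroxylysine, was higher at 0.53 (adjusted p = 0.00439).

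Of the other methionine genes, 3 of 12 were higher, none lower, and 9 did not pass. Mtrr, the reductase that keeps methionine synthase active, had the largest log2 fold change at 0.72 (adjusted p = 0.00806) and Bhmt2 the lowest at -0.18 (adjusted p = 0.354). In the sulfur group 2 of 5 tested were lower, with Ethe1, the persulfide dioxygenase, at -0.65 (adjusted p = 0.00598), and Tst, a sulfurtransferase, at 0.37 (adjusted p = 0.0542). Of the asparagine-hydrolysing enzymes, Asrgl1 was higher at 0.66 (adjusted p = 0.0102) and Aspg lower at -0.91 (adjusted p = 0.00665).

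Of 9 transcription factors known to act on these genes, 1 was higher and 2 lower. Atf4, which drives Asns and other amino acid response genes, gave 1005, 1016, 1068 and 619 normalized counts in the controls and 1104, 2137, 1499 and 2125 in the Pcx L-/- mice. The groups did not overlap, though replicate 1 was only just above the controls, and the log2 fold change was 0.89 (adjusted p = 0.0147). Ppara was lower at -0.52 (adjusted p = 0.0137), and Nr3c1, the glucocorticoid receptor, at -0.51 (adjusted p = 0.0293). The calls of Atf4 and Ppara were lost without Pcx L-/- replicate 4 (adjusted p = 0.0518 and 0.0534). Klf15, a fasting-linked regulator of amino acid breakdown, was at -0.39 (adjusted p = 0.0822), and Hnf4a, Cebpa, Cebpb and Creb3l3 did not pass.

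Levels of cell type markers were compared beside these results, and their part in them was not tested. Of 6 hepatocyte genes 3 were lower (Apoa1, Serpina1a and Cyp2e1), with a summed level of 1588690 to 1849520 normalized counts in the controls and 892938 to 1383290 in the Pcx L-/- mice. The range of the Pcx L-/- mice lay wholly below that of the controls. Most of each sum was Alb, at 1147430 to 1419710 against 690172 to 1019220, and Alb was not called (-0.63, adjusted p = 0.0532). Ttr (-0.43, adjusted p = 0.261) and Hnf4a (-0.31, adjusted p = 0.216) overlapped between genotypes and were not called. Summed levels of the lists for Kupffer cells (3050.4 to 4215 against 3310.1 to 4302), endothelial cells (4676 to 6399.8 against 4141 to 4969.9), stellate cells (3433 to 5604 against 2216 to 4617) and bile duct cells (343 to 611 against 310.4 to 391) overlapped between genotypes. Among them Cd68 was higher and Sox9 lower. Of 6 lymphocyte genes, whose sums were 132 to 284 against 173 to 246, 4 were tested and none passed. Of 6 pancreas genes only Cela1 had enough reads, and it was higher, while Prss1 and Amy2a5 had no reads. Of 6 genes of the portal side of the lobule, where much amino acid breakdown takes place, 4 were lower (Cyp2f2, Pck1, Gls2 and Cdh1). The other 2 went the other way and were not called. Aldh1b1 was at 0.20 (adjusted p = 0.453), and Hsd17b13 at 0.39 (adjusted p = 0.0552), with every Pcx L-/- mouse above every control. Over all genes tested, 13.5% were lower. Of 7 tested genes of the central vein side, 2 were higher (Axin2 and Tbx3), 1 was lower (Rgn) and 4 were not called.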

How the data were processed

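Liver RNA from 4 Pcx L-/- and 4 control mice was sequenced, 1 library per mouse, and grouped by the labels. The authors deposited raw read counts per Ensembl gene (mm10), with 12016242 to 20023108 reads per library. The deposited FPKM equal count over gene length and library total in 100% of 142384 values above 0 (relative tolerance 1e-06), so they carry no separate measurement and are scaled by library total. The submitters' processing notes name STAR 2.5, HTSeq 0.6.1 and DESeq2; what each did, the annotation release and the use of strand were not given in the sources used here.

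Counts were tested with edgeR 4.0.16 (R 4.3.3): TMM factors, filterByExpr (minimum count 10, minimum total 15), the quasi-likelihood F test with genotype as the only term, 6 residual degrees of freedom, and Benjamini-Hochberg adjustment over 13168 genes. The threshold was an adjusted p of 0.05. Standard errors are the log2 fold change over the square root of F. Gene symbols and positions came from GENCODE M21 (34490 of 35275 identifiers, 97.8%), start sites from RefSeq. Alternatives were other scalings, every gene with at least 1 read, a replicate block, the mouse number series, DESeq2 1.42.0, limma 3.58.1 on log2(FPKM + 1) and log2(FPKM + 0.1), and leaving out each mouse.

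On simulated counts for this comparison, with 193 of 12972 genes changed, edgeR recovered 74.5% of 2-fold and 100% of 4-fold changes with 14 false calls. The simulation set no mouse apart from its group and changed far fewer genes than were called in the data. Its rates therefore need not hold for these libraries. The 48 genes, the lists and the tests were chosen with earlier results of these data known. All 48 may be named; in full are given, per pathway, the gene with the smallest adjusted p and any called gene changed at least 2-fold. Of the other pathway genes, those with the extreme log2 fold changes in each pathway and those called at least 2-fold are named, except for an item not reported here. Hoga1, Pycr3, Nr3c1, Klf15, Gstz1, single marker genes, read ratios, and members given in full beyond the rule were chosen after their values were seen.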

Additional observations from a re-analysis of the deposited data

Results flagged for a closer look

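For the 48 enzyme genes and 27 other named genes, each group of 4 mice was examined for a mouse that lies apart, by Dixon's ratio of the gap to the nearest mouse over the range of the group and its 95% critical value for 4 mice. Of 150 groups 27 held such a mouse, and 20 of these were among the 96 groups of the 48 enzyme genes. Chance gives about 1 in 20 for a single group. That rate is no measure for the total, because the same mice recur in every gene and the groups are not independent. In 17 of the 20 the mouse was Pcx L-/- replicate 1, as the highest of its group. Its normalized counts in the routes of the ring-bearing amino acids, lysine and histidine were Hpd (45056), Hgd (9043), Tdo2 (36734), Afmid (517), Haao (4331), Aass (11564), Gcdh (8379) and Uroc1 (7213). For the remaining enzymes they were Oat (35288), Prodh (7068), Gldc (3510.2), Gpt (13826), Dbt (3281), Ivd (4709), Acadsb (2134), Mat1a (207259) and Gnmt (36031). Gcdh, for example, was at 8379 against 4423 in the next Pcx L-/- mouse, and Oat at 35288 against 11868. The same mouse was also the highest for 4 other pathway genes, Ido2 (779), Acmsd (239), Aldh7a1 (7156) and Prodh2 (3202).

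Among the controls, replicate 4 was the highest for Asns, at 187 against 67.4 in the next control, for Acadsb, at 2727, and for Ppara, at 3858, and the lowest for Atf4, at 619 against 1005. Control replicate 1 was the highest for Aldh4a1, at 3596, and Pcx L-/- replicate 3 the lowest for Grhpr, at 3513.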

How the results depend on the processing

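Across the 16 alternatives, the count of the 48 genes that were lower ranged from 12 (without Pcx L-/- replicate 4) to 30 (without Pcx L-/- replicate 1), and was 19 with DESeq2 size factors or the mouse number series as a term, 20 with every gene that had at least 1 read, 23 with DESeq2 (Ahcy, Cbs, Mat1a and Sds were added), 14 with scaling by total reads (Acad8, Cdo1, Csad, Ivd and Kynu were lost) and 13 with limma on either log2(FPKM) scale (these and Gnmt). The count that were higher was 5 with scaling by total reads and with limma on log2(FPKM + 1) or log2(FPKM + 0.1), which added Amt, Gpt2 and Hibch, and 2 or 3 otherwise. Of the other pathway genes, 17 were higher under each of these same 3 settings. With scaling by total reads 29.7% of all genes were higher, and for limma that share was not counted. With the same scaling 15 of the other pathway genes were lower, beside 6.61% of all genes. Leaving out 1 mouse gave 13 to 34 lower and 8 to 12 higher. Over all genes, 17.8% were lower without Pcx L-/- replicate 1 and 7.11% without replicate 4. The median of the 48 stayed negative in all 16, from -0.70 to -0.22.

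Scaling by total reads and FPKM moved the median of all genes to 0.28, 0.18 and 0.27 (total reads, then limma with a pseudocount of 1 and of 0.1), and small log2 fold changes turned positive by construction, in that order: Fah (0.13, 0.13, 0.13), Amdhd1 (0.13, 0.13, 0.13), Ftcd (0.24, 0.25, 0.25), Gcsh (0.20, 0.22, 0.23), Gpt (0.0989, 0.0764, 0.0766), Agxt2 (0.10, 0.11, 0.11), Bckdhb (0.14, 0.14, 0.15), Dbt (0.24, 0.23, 0.24), Auh (0.0655, 0.077, 0.0845), Hibadh (0.24, 0.24, 0.25), Got2 (0.14, 0.15, 0.15), Srr (0.0861, 0.0798, 0.0856), Grhpr (0.14, 0.14, 0.14), Ppm1k (0.12, 0.13, 0.13) and Bhmt2 (0.0947, 0.0924, 0.093). Scaling by total reads also turned Prodh (0.024). With the mouse number series as a term, Dbt was at 0.043, Ftcd at 0.028, Gcsh at 0.0015 and Hibadh at 0.017, and Bckdha was at -0.00437 with DESeq2 size factors and -0.00213 with DESeq2. Leaving out 1 mouse also turned 7 genes near 0, whose log2 fold changes then ran from -0.17 to 0.062 for Ftcd, -0.21 to 0.057 for Dbt, -0.13 to 0.016 for Hibadh, -0.17 to 0.00436 for Gcsh, -0.00327 to 0.17 for Bcat2, -0.073 to 0.044 for Bckdha and -0.00195 to 0.27 for Bhmt. None of these genes had passed the test.

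Replicate numbers did not pair the mice, since deviations of same-numbered mice correlated at 0.09, -0.12, -0.09 and -0.07. With a replicate block, 22 of the 48 were lower (Hal, Oat and Sds were added) and 2 higher, the median was -0.52, and Kyat1 was not called (adjusted p = 0.0607). The lowest of the 48 genes, Asns, had 45.5 normalized counts in its lowest mouse.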
